A study of Mus musculus with 6 samples.

Results

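Vldlr, Lrp8, Lrp1, Lrp2 and Sorl1 encode receptors of the LDL receptor family, Mylip encodes the ubiquitin ligase that marks some of these receptors for degradation, and Scarb1 encodes the scavenger receptor that takes up cholesterol from HDL. These 7 genes were chosen by their symbols, with earlier results of these data known, and each had 1 row among the 55385 genes of every library's table. RNA had been sequenced from the mammary tissue of 3 control and 3 DMHCA-treated female NeuT/ATTAC mice, and the question was how DMHCA, an agonist of the oxysterol receptor LXR, altered expression. All mice carried rat ErbB2 with the activating substitution V664E under the MMTV promoter, and an FKBPv-caspase-8 fusion under the fat-directed FABP4 promoter. AP20187, which joins the caspase fusion into active dimers and so removes part of the mammary fat, was injected at 0.4 mg/kg 3 times per week from 6 weeks of age. The DMHCA group received a diet with 0.05% DMHCA (100 mg/kg) from 8 weeks of age. The controls carry the treatment label "AP20187 Vehicle", which leaves it unclear whether they also received AP20187, and the study describes control tumors of mice given AP20187. The tissue label is mammary gland fibrosis, whereas the study describes tumors.

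Receptors of the LDL receptor family bind lipoproteins, proteases and other ligands at the cell surface, carry them into endosomes and return for another round. Lrp8 and Vldlr also pass the reelin signal into the cell. When sterols accumulate, oxysterols activate LXR, and Mylip is among the genes that LXR switches on. The ligase, also called Idol, attaches ubiquitin to the tails of Vldlr and Lrp8, which are then broken down in lysosomes, so the control acts on receptor protein and need not appear in receptor RNA.

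DMHCA libraries 1 and 3 were nearly identical. Their biological coefficient of variation, the spread beyond sampling, was 0.0243, against 0.264 to 0.372 for the other 5 pairs of libraries within a group. The pair was therefore summed to 1 sample, which leaves 3 control and 2 DMHCA samples. Expected counts summed to between 46358654 and 63420620 per library. Epithelial markers were present in every library, with a summed TPM (a level per transcript length) of 2743 to 4791 for 5 genes. Control library 3 stood apart through adipocyte and lymphocyte RNA. Its 5 adipocyte markers summed to 914 TPM, against 123 and 203 in control libraries 2 and 1 and 68.7 to 68.8 TPM in the DMHCA libraries. In normalized counts, all 5 were lower in every DMHCA sample than in every control sample, as were 12.2% of all genes tested. The B cell markers summed to 269 TPM in control library 3 and to between 1.09 and 31.5 TPM in the other libraries, and the T cell markers to 180 TPM against 2.22 to 20.4 TPM. DMHCA library 2 stood apart through its 5 skeletal muscle markers, which summed to 188.5 TPM against 477 to 802 TPM in the other libraries. In bulk tissue, fewer cells of a type and less RNA per cell cannot be told apart. The study names 3 mice per group, but the labels tie no library to a mouse, and the near identity of DMHCA libraries 1 and 3 leaves p-values to measure the spread between these 5 samples.

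The sequence upstream of Mylip is shown because Mylip was the only member for which every DMHCA sample lay above every control sample in normalized counts, and those of Vldlr and Lrp8 because their proteins are its targets. RefSeq promoters on GRCm38.p6 matched 6 of the 7 members with 10 start sites, Scarb1 being unmatched. The 250 bases before each start were searched on both strands. Capitals mark matches to TATAAA (the TATA box), to CCAAT (the CCAAT box), to GGGCGG (the GC box), to CACGTG (an E box) and to AGGTCA (the site of a single nuclear receptor). The DR4 element, which LXR binds with its partner RXR, was searched as an exact AGGTCA followed after 4 free bases by another, so each DR4 match also holds the single site. The Mylip stretch is chr13:45389492-45389741 on the plus strand. The Vldlr stretch is chr19:27216770-27217019 on the plus strand and lies before the downstream of both Vldlr starts. The Lrp8 stretch is chr4:107830703-107830952 on the plus strand, before the third Lrp8 start and well downstream of the first. For Vldlr and Lrp8, the stretch printed is the only one of the gene with a marked match. The stretch before the first Lrp8 start, chr4:107802635-107802884, held none.
Mylip: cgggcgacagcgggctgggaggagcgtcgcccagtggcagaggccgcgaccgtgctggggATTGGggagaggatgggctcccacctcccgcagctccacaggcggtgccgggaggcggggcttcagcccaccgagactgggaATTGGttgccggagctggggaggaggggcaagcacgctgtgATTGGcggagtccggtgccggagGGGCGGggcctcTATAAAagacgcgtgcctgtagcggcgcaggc
Vldlr: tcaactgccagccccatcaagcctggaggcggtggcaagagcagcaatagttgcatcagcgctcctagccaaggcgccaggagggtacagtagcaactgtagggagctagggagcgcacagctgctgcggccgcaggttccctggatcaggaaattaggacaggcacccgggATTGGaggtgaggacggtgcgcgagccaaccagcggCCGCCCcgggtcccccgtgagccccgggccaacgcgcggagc
Lrp8: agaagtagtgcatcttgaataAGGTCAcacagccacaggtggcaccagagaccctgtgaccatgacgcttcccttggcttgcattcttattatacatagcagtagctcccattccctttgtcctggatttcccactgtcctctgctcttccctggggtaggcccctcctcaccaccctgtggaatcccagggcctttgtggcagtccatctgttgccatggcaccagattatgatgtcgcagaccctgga

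The Mylip stretch held TATAAA 32 bases before the start, 1 GC box 44 bases before it, and 3 CCAAT matches on the minus strand at 190, 108 and 67 bases. TATAAA was found in 1 of the 10 member stretches and in 12.4% of the 32851 promoters of the table. CCAAT was found in 2 of the 10, those of Mylip and Vldlr printed above, and in 33.8% of all. The GC box was found in 5 of the 10 and in 32.7% of all. AGGTCA occurred in 1 of the 10, the Lrp8 stretch above, and in 14.0% of all, and DR4 in 0 of the 10 and in 0.0152% of all. CACGTG was found in 1 of the 10, before the first start of Sorl1, and in 6.02% of all. GC content was 71.2% for Mylip, with a median of 52.4% over the table.

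Mylip (ENSMUSG00000038175, chromosome 13 of GRCm38, 45389742 to 45412022) had 77.2, 40.7 and 58.1 CPM (counts scaled to a common library size and not divided by length) in control libraries 1, 2 and 3. In DMHCA libraries 1 and 3 combined it had 121 CPM, and in DMHCA library 2 it had 91.9 CPM. Values below keep this order of samples. Both DMHCA samples lay above the highest control sample, control library 1, the lower of them by 1.19-fold. The means were 58.6 ± 18.3 (SD, n = 3) in controls and 106 ± 20.3 (SD, n = 2) with DMHCA, a 1.81-fold difference. The log2 fold change was 0.86 (standard error 0.33, 95% interval 0.06 to 1.65), and its adjusted p was 0.644 by edgeR's quasi-likelihood test. At an adjusted p under 0.05, 0 of the 7 members and 0 of the 19427 genes tested (0.0%) were called. In this fit, Mylip was the only member with an unadjusted p under 0.05, which 7.61% of all genes reached, 3.53% in the higher direction. Groups that do not overlap, with DMHCA higher, were found for 1 of the 7 members and for 13.8% of all genes, so the members' share was near the background. The unadjusted threshold was missed without control library 2 (log2 fold change 0.65) and without control library 3 (0.85). DESeq2 gave Mylip an adjusted p of 0.426 on the 5 samples, where it called 1.22% of genes. On the 6 libraries, which count the nearly identical DMHCA libraries 1 and 3 as 2 samples, it gave an adjusted p of 0.106 and called 4.45%. It called 0 of the 7 members in either.

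**Figure D1:**
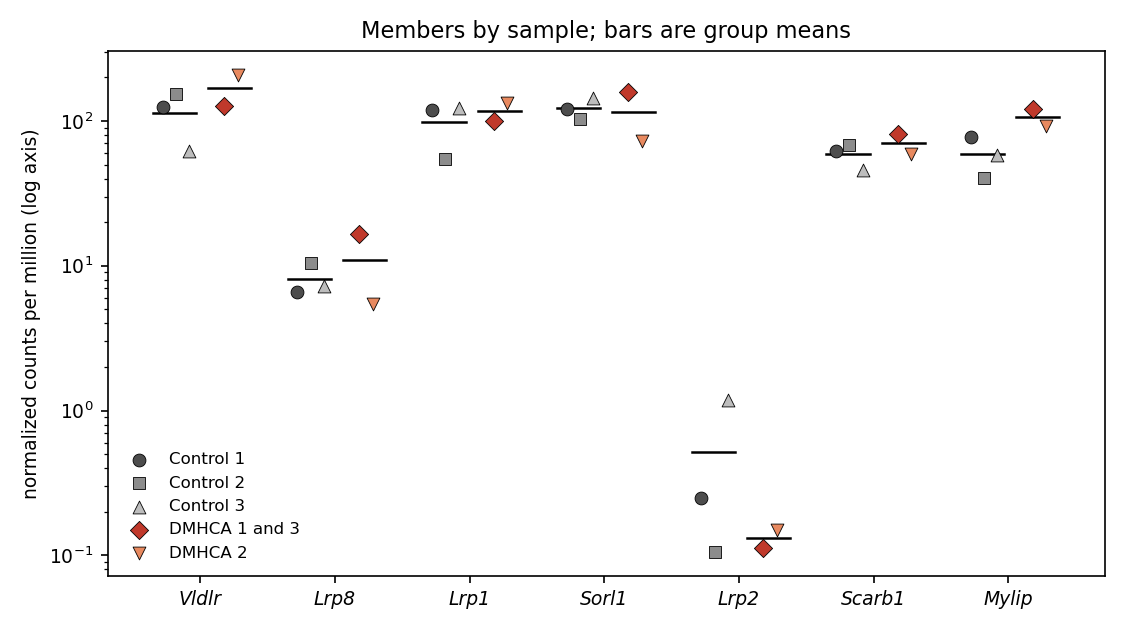
Normalized counts (CPM, log axis) of the 7 members in the 3 control samples (grey) and the 2 DMHCA samples (red and orange); bars are group means. The groups are separate for Mylip, and DMHCA library 2 lies below every control sample for Lrp8 and Sorl1.

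Among the receptors that Mylip acts on, Vldlr binds triglyceride-rich lipoproteins and reelin. Vldlr (ENSMUSG00000024924, chromosome 19, 27216484 to 27254231) had 125, 153 and 61.8 CPM in the controls and 127 and 209 CPM under DMHCA. DMHCA libraries 1 and 3 lay between control libraries 1 and 2, and only DMHCA library 2 was above every control. The means were 113 ± 46.5 (SD, n = 3) and 168 ± 58.1 (SD, n = 2). The log2 fold change was 0.57 (standard error 0.44, 95% interval -0.49 to 1.62, adjusted p = 0.727 by edgeR). It was 0.27 without control library 3 and 0.20 without DMHCA library 2, the lowest and the highest library for this gene. Control library 3 was also the library with the most adipocyte and lymphocyte RNA, whose part in the Vldlr value was not tested.

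Lrp8 (ENSMUSG00000028613, chromosome 4, 107802261 to 107876840), the other reelin receptor, had a level per length of 1.91 to 5.66 TPM, below Vldlr in every library. It had 6.62, 10.4 and 7.30 CPM in the controls and 16.5 and 5.47 CPM under DMHCA. The DMHCA samples thus enclosed all 3 controls, one 2.04 times and the other 0.674 times the control mean. The log2 fold change was 0.44 (standard error 0.54, 95% interval -0.87 to 1.75, adjusted p = 0.817 by edgeR). It was 0.66 without control library 2 and 1.07 without DMHCA library 2, with the remaining DMHCA sample assumed to vary like the controls. The part of the low muscle RNA of that library in the Lrp8 value was not tested.

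Lrp1 is a large endocytic receptor of fibroblasts, macrophages and many other cells that clears protease complexes and lipoprotein remnants. Lrp1 (ENSMUSG00000040249, chromosome 10, 127538161 to 127621148) had 119, 54.7 and 123 CPM in the controls and 100.1 and 134 CPM under DMHCA. Control library 2 stood low, and the other 4 samples overlapped. The log2 fold change was 0.24 (standard error 0.40, 95% interval -0.72 to 1.21, adjusted p = 0.868 by edgeR), and it was -0.051 without control library 2, 0.059 without DMHCA library 2 and 0.42 without control library 3. The 5 fibroblast markers also had their lowest sum in control library 2, 194 TPM against 360 to 866 TPM in the other libraries, and their part in the Lrp1 value was not tested.

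Sorl1, a sorting receptor that carries cargo between the Golgi and endosomes, combines LDL receptor repeats with a VPS10 domain. Sorl1 (ENSMUSG00000049313, chromosome 9, 41964720 to 42124297) shares exon sequence with the antisense gene Gm16214, and whether counting used strand is not given in the sources used here. It had 122, 103 and 145 CPM in the controls and 159 and 72.9 CPM under DMHCA. As for Lrp8, the DMHCA samples were the highest and the lowest of the 5. The log2 fold change was -0.09 (standard error 0.38, 95% interval -1.01 to 0.83, adjusted p = 0.957 by edgeR), and it was 0.41 without DMHCA library 2 and 0.040 without control library 3. The part of the low muscle RNA of DMHCA library 2 in the Sorl1 value was not tested either.

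Lrp2, or megalin, is a receptor of absorptive epithelia such as kidney and thyroid. Lrp2 (ENSMUSG00000027070, chromosome 2, 69424340 to 69586065) was close to undetected, with 14, 6 and 59 counts in control libraries 1, 2 and 3 and with 6, 8 and 6 counts in DMHCA libraries 1, 2 and 3. It passed the filter on low counts through control libraries 1 and 3. Control library 3 alone held more counts than the other 5 libraries together. The log2 fold change was -1.96 (standard error 1.12, 95% interval -4.65 to 0.73, adjusted p = 0.667 by edgeR), and without control library 3 the gene fell under the filter. The part of the adipocyte and lymphocyte RNA of that library in this value was not tested.

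Scarb1 is no member of the LDL receptor family by structure. Scarb1 (ENSMUSG00000037936, chromosome 5, 125277087 to 125341094) had 62.3, 68.4 and 45.7 CPM in the controls and 81.5 and 58.8 CPM under DMHCA. DMHCA library 2 lay within the control range. The means were 58.8 ± 11.7 (SD, n = 3) and 70.2 ± 16.1 (SD, n = 2), which is 0.26 on the log2 scale (95% interval -0.44 to 0.95, standard error 0.29, adjusted p = 0.800 by edgeR). It was 0.10 without control library 3 and 0.51 without DMHCA library 2. Of the 7 members, 5 had a positive and 2 a negative log2 fold change, with a median of 0.26. Over all genes tested, 9328 of 19427 were positive and the median was -0.03. The negative members were Lrp2, close to undetected, and Sorl1, whose sign varied with the processing.

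**Figure D2:**
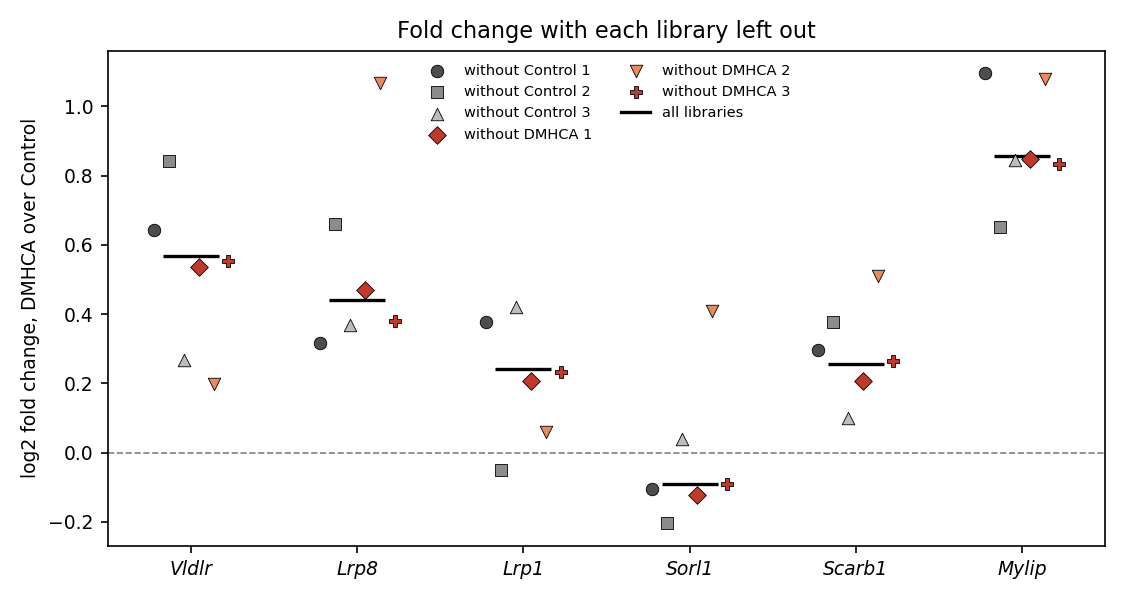
Log2 fold change of 6 members with all libraries (bars) and with each library left out (symbols); Lrp2 is omitted because it fell under the filter in part of the fits. Mylip stays between 0.65 and 1.10, Lrp8 reaches 1.07 without DMHCA library 2, and Sorl1 lies on both sides of 0.

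In TPM, which divides by length and lacks the TMM scaling of library sizes used for CPM, more members separated by group. Lrp8 had 1.99, 2.21 and 1.91 TPM in control libraries 1, 2 and 3 and 5.30, 2.69 and 5.66 TPM in DMHCA libraries 1, 2 and 3, so every DMHCA library was above every control. The library that was lowest in normalized counts was thus above all controls in TPM. Vldlr had 36.8, 37.4 and 14.5 TPM in the controls and 41.4, 70.5 and 39.8 TPM with DMHCA, without overlap. Scarb1 had 37.5, 30.6 and 25.3 TPM in the controls, and its lowest DMHCA library held 37.8 TPM, just above the highest control. Mylip had 37.6, 14.7 and 26.2 TPM in the controls and 56.6, 47.6 and 57.4 TPM with DMHCA. These 4 members were higher without overlap in TPM, as were 20.3% of all genes tested, and the median log2 fold change over all genes was 0.11 on the log2(TPM + 1) scale. By limma on that scale the adjusted p of the 4 was 0.667 to 0.675.

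For Lrp8 the log2 ratio of mean TPM was 1.004 and the log2 fold change from counts 0.44. For Vldlr they were 0.91 and 0.57. For Mylip they were 0.9998 and 0.86. RSEM divides by an effective length, the abundance-weighted length of a gene's transcripts, and this length differed between libraries most for Lrp1, Lrp8, Lrp2 and Vldlr. For Lrp8 it was 4648, 4924 and 4995 bases in control libraries 1, 2 and 3, and 4098, 3041 and 4141 bases in DMHCA libraries 1, 2 and 3. Every DMHCA library was therefore shorter than every control library, and DMHCA library 2 was the shortest. For Vldlr, control library 3 had the longest value, 5565 bases, and the other 5 libraries lay between 4235 and 4766 bases. Mylip, with only 2 transcripts in the tables, varied from 2870 to 2898 bases. Scarb1, with 11 transcripts, varied from 2321 to 2364 bases, and its log2 ratio of mean TPM was 0.46 against 0.26 from counts. The 2 scales also differ in library scaling, since TPM was not scaled by TMM. Over all genes, the median log2 fold change was 0.11 on log2(TPM + 1) and -0.03 from counts. The part of this scaling in the gaps of single members was not tested. The tables used here give no transcript levels, and whether transcript use or its estimation differed was not tested.

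**Figure D3:**
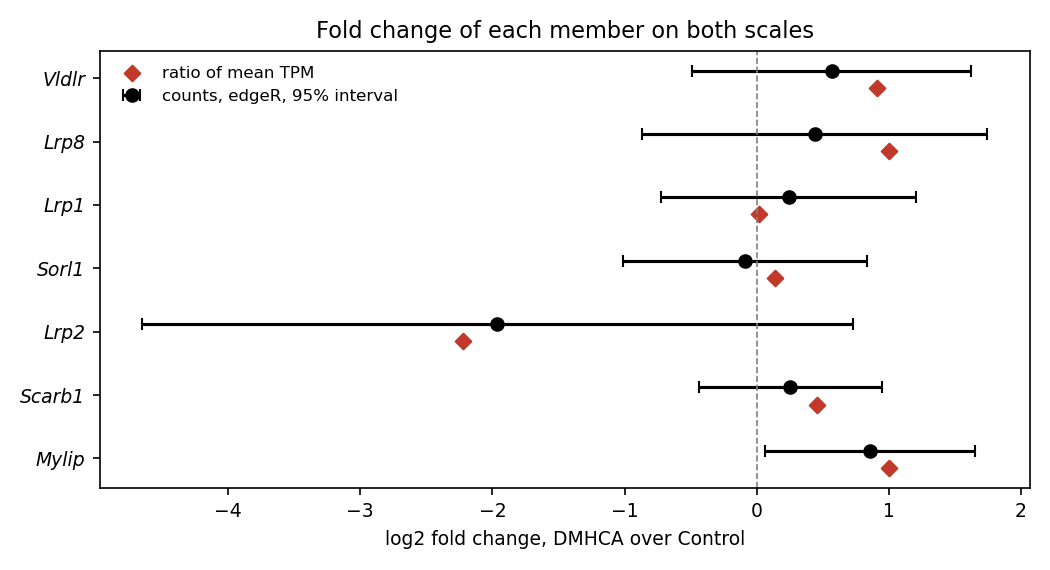
Log2 fold change, DMHCA over Control, from counts (black, with the 95% interval from edgeR) and as the ratio of mean TPM (red). Only the Mylip interval lies above 0, and the 2 scales are farthest apart for Lrp8, at 0.44 and 1.004.

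The order of levels among the members depended on the length used. Over the 5 samples, mean TPM was 46.3 ± 14.7 (SD, n = 5) for Lrp1, 40.0 ± 20.0 for Vldlr, 36.6 ± 16.8 for Mylip and 35.8 ± 8.49 for Scarb1. These SDs span both groups, and the order of these 4 changed between samples and was not tested. Sorl1 followed with 15.7 ± 5.33 TPM, Lrp8 with 2.86 ± 1.50 TPM and Lrp2 with 0.032 ± 0.039 TPM. The Lrp1 level rests on effective lengths of 2324 to 4051 bases, although the full-length transcript has 14888 bases and the next longest of its 10 transcripts 3436 bases. Of these 10, 5 are annotated as retained introns. When normalized counts were divided by the longest annotated transcript instead, Mylip came first with 25.4 ± 10.1 CPM per kilobase (SD, n = 5), followed by Scarb1 with 20.5 ± 4.24, Vldlr with 16.9 ± 6.66 and Sorl1 with 11.2 ± 3.17. Lrp1 then ranked 5 of 7, with 7.13 ± 2.10. These means pool both groups. In control libraries 1, 2 and 3, Mylip had 25.2, 13.3 and 18.95 CPM per kilobase and Scarb1 20.1, 22.1 and 14.8, so Mylip was not above Scarb1 in every control. Lrp8 and Lrp2 kept ranks 6 and 7 on both scales.

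**Figure D4:**
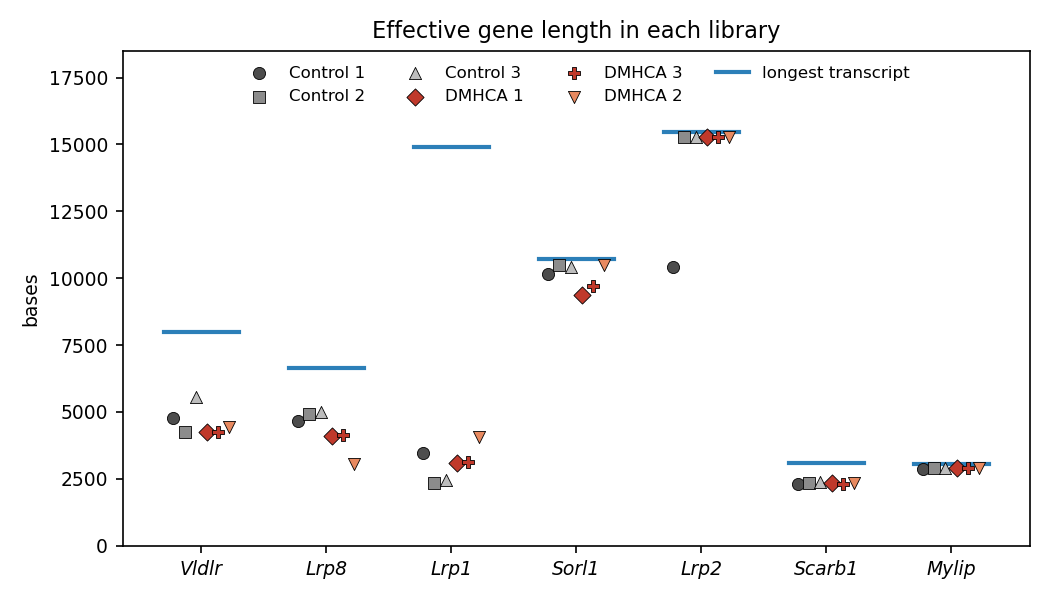
Effective length of each member in the 6 libraries (symbols), in bases, with the longest annotated transcript (blue bar). Lrp1 lies at 2324 to 4051 bases, far under its longest transcript of 14888 bases, and Mylip is nearly the same in all libraries.

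The genes nearest to each member in pattern were found by the root mean square difference of log2 normalized counts, centred on their mean, over the 5 samples. For Mylip these were Epn1 (difference 0.041) and Inafm1 (0.045), and 208 of 12673 genes lay within 0.2. Vldlr was nearest to Esrrg (0.030) and Slc29a3 (0.044), with 134 genes within 0.2. For Lrp8 the nearest genes were Hyal3 (0.101) and Aldh18a1 (0.113), with 14 genes within 0.2. Lrp1 was nearest to Prkce (0.032) and Ptprs (0.069), Sorl1 to Nxpe5 (0.084) and Pnrc1 (0.088), Scarb1 to Col9a2 (0.027) and Atxn1 (0.042), and Lrp2 to Ipcef1 (0.112) and Cyfip2 (0.182). The count within 0.2 was 646 for Scarb1, whose own values spread least among the members (root mean square 0.274), and 2 for Lrp2, whose values spread most (1.29).

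Of the 10 further LDL receptor relatives, 9 were tested, Lrp1b being too low. With DMHCA, 3 of the 9 were higher without overlap (13.8% of all genes), 1 of them with an unadjusted p under 0.05 in the higher direction (3.53% of all genes), and 0 were lower without overlap (12.2% of all genes). The median log2 fold change was 0.31. Ldlrad3, a receptor with LDL receptor class A repeats, had 14.6, 4.78 and 7.70 CPM in the controls and 37.1 and 30.3 CPM under DMHCA. Both DMHCA samples lay well above the highest control, control library 1. The mean was 3.73-fold higher (log2 1.90, standard error 0.49, 95% interval 0.72 to 3.07, adjusted p = 0.644 by edgeR). Lrp5, a Wnt co-receptor, had 213, 135 and 105 CPM in the controls and 233 and 267 CPM under DMHCA (log2 fold change 0.73, SE 0.36). Its partner Lrp6 overlapped between groups (log2 fold change 0.31, SE 0.35), with values of 0.090 without DMHCA library 2 and 0.59 without control library 1. For Lrp12 the log2 value of 0.65 (SE 0.41) was 0.36 without control library 3. Lrp11 held 29.8 CPM in DMHCA library 2 and 1.39 to 8.19 in the other samples, and its log2 fold change of 1.73 was 0.13 without that library.

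Among 6 further receptors, the VPS10 sorting receptors and the class B scavenger receptors, 5 were tested and 0 were separated by group (13.8% of all genes higher, 12.2% lower). Sort1 (sortilin) stood at a log2 fold change of 0.56 (SE 0.38), and at 0.33 without control library 3 and 0.86 without control library 1. Scarb2, the lysosomal relative of Scarb1, stood at 0.094 (SE 0.30), and at -0.030 without control library 3. Cd36, a fatty acid receptor that adipocytes also express, had 160.5 CPM in control library 3 and 14.7 to 35.1 in the other samples. The log2 value of -1.68 (SE 0.93) was -0.28 without control library 3, in which the adipocyte markers summed highest, and their part in the Cd36 value was not tested.

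All 10 ligands were tested, and 2 were lower without overlap (12.2% of all genes), 1 of them with an unadjusted p under 0.05 in the lower direction (4.08% of all genes). Clu encodes clusterin, a secreted chaperone that binds Lrp2, Vldlr and Lrp8. It had 1141, 924 and 768 CPM in the controls and 135 and 402 CPM under DMHCA. Every DMHCA sample was below every control, by -1.81 on the log2 scale in the fit (SE 0.54, 95% interval -3.11 to -0.52, adjusted p = 0.644 by edgeR). Without DMHCA library 2 the value was -2.77. Lpl, the lipoprotein lipase, had 398 CPM in control library 3 and 47.0 to 67.7 in the other samples. The log2 value of -1.75 (SE 0.90) was -0.28 without control library 3, in which the adipocyte markers also summed highest, and their part in the Lpl value was not tested. Reln, the ligand of Vldlr and Lrp8, shares exon sequence with the antisense gene Gm10475 and had 47.7, 57.5 and 5.51 CPM in the controls and 1.31 and 249.6 CPM under DMHCA. The DMHCA samples lay on both sides of all controls, and the log2 fold change went from 1.76 to -4.79 without DMHCA library 2.

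Of 15 adaptors, chaperones and sorting partners, 14 were tested, with 1 higher and 1 lower without overlap (13.8% and 12.2% of all genes) and 0 with an unadjusted p under 0.05 (7.61% of all genes). Both are chaperones. Mesd, which folds Lrp5 and Lrp6, stood at a log2 fold change of 0.28 (SE 0.25), or 0.15 without control library 2, and its exons overlap Gm49493 on the same strand. Lrpap1, which escorts newly made receptors of the family, stood at -0.22 (SE 0.26), or -0.066 without control library 2, and its lowest control and highest DMHCA samples held 71.1 and 70.6 CPM. The retromer gene Vps35, a partner of Sorl1, stood at 0.067 (SE 0.32), and at -0.13 without DMHCA library 2. The 4 genes for the conjugating enzymes and the deubiquitinase of Mylip overlapped between groups (13.8% of all genes were separated as higher and 12.2% as lower), with a median log2 fold change of -0.059. Among them, Usp2, whose product removes ubiquitin from Mylip and whose exons share sequence with antisense genes, had 6.72 to 8.68 CPM in the controls and 17.6 and 2.78 CPM under DMHCA.

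The 8 genes of LXR receptors and LXR targets were all tested, and 5 were higher and 1 lower without overlap (13.8% and 12.2% of all genes), with a median log2 fold change of 0.57. An unadjusted p under 0.05 was found for Srebf1 and Abca1 in the higher direction (3.53% of all genes) and for Nr1h3 in the lower (4.08% of all genes). Srebf1, the gene of the lipogenic factor SREBP1, had 318 to 549 CPM in the controls and 2131 and 1449.9 CPM under DMHCA (log2 fold change 2.01, SE 0.39), and its exons share sequence with Rai1 on the other strand. The cholesterol exporter gene Abca1 had 62.6 to 115 CPM in the controls and 279 and 189 CPM under DMHCA (log2 fold change 1.36, SE 0.35). Srebf1, Abca1, Ldlrad3, Clu and Lpl are also in gene lists that the study drew from these libraries, so they are no independent evidence. Abcg1, another exporter gene, stood at 0.80 (SE 0.42), and at 1.27 without control library 2 and 0.55 without control library 3. Nr1h3, which encodes LXRα, had 15.9 CPM in control library 3 against 3.18 to 6.72 in the other samples, and the log2 value of -1.46 (SE 0.59) was -0.86 without that library, where it missed the unadjusted threshold. That library also held the most adipocyte and lymphocyte RNA, whose part in the Nr1h3 value was not tested. Nr1h2, which encodes LXRβ, was higher without overlap, at 0.40 (SE 0.29) and at 0.23 without control library 2, as was Smpdl3a, a phosphodiesterase gene, at 0.46 (SE 0.24). Of 7 genes of sterol synthesis and its regulation by SREBP2, 0 were separated by group (13.8% of all genes higher, 12.2% lower), and the median log2 fold change was 0.11, or -0.10 without control library 3.

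**Figure D5:**
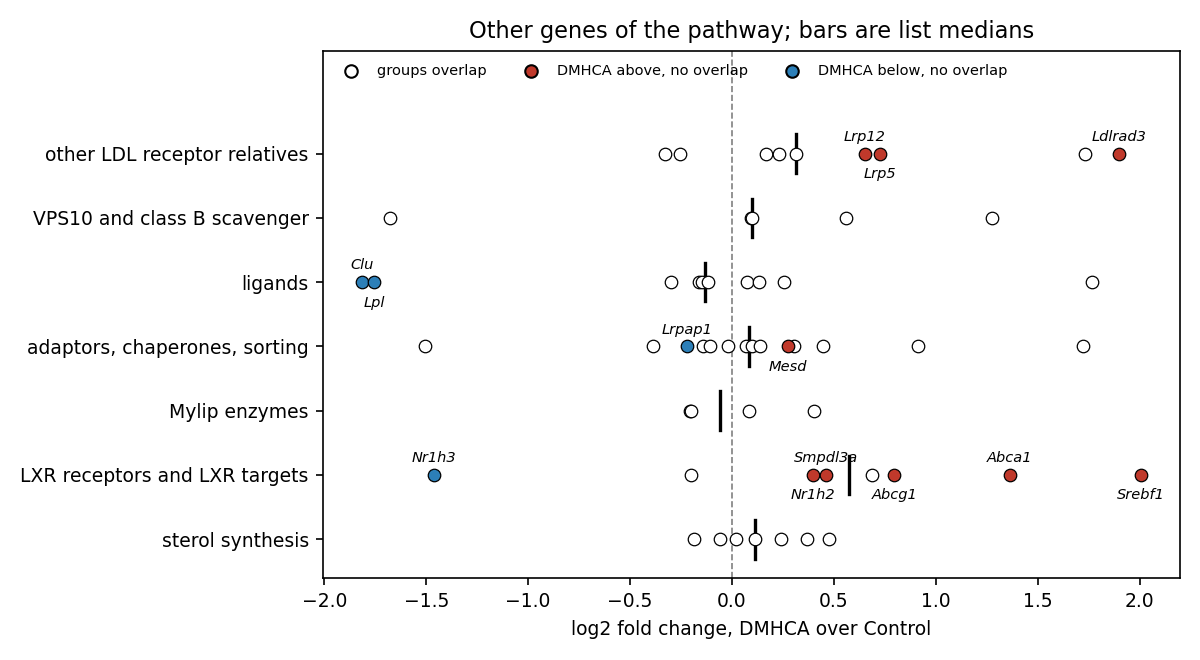
Log2 fold change, DMHCA over Control, of the 57 tested genes of the 7 further lists; red and blue mark genes whose groups do not overlap, and bars are list medians. In all, 9 genes are higher and 4 lower without overlap, against 13.8% and 12.2% of all genes tested, and the LXR list has the highest median, 0.57.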

How the data were processed

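Per the labels and the study's methods, the authors checked reads with FastQC 0.11.9, trimmed them with cutadapt 2.9 and used RSEM 1.3.1 with Bowtie2 2.4.1 on mm10. They deposited 1 table per library with RSEM's expected counts (not normalized), TPM (scaled by the authors within each library) and FPKM (deposited by the authors, not used). Expected counts were rounded. DMHCA libraries 1 and 3 met a rule (coefficient of variation under 0.1 and more than 5 times below every other pair, where the mean count was 100 or more) and were summed, and their TPM was averaged.

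Counts were fitted with edgeR 4.0.16 in R 4.3.3 (quasi-likelihood test, TMM, filterByExpr at a count of 10 and a total of 15), and p-values were adjusted by Benjamini-Hochberg across 19427 genes. Standard errors are the log2 fold change over the square root of F. CPM uses TMM-scaled library sizes. DESeq2 1.42.0 and limma 3.58.1 gave alternatives. The edgeR fit was also run on simulated counts without the differences in cell type markers seen here, and none of the results above rests on that run. Coordinates are from GENCODE M21 on GRCm38, which held 99.6% of the gene IDs.

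The members and the gene lists were chosen with earlier results of these data known. The genes named are all members, genes of the lists that were separated by group or had an unadjusted p under 0.05, list genes whose role is described, and the 2 nearest genes in pattern to each member, among genes with a mean of at least 100 normalized counts.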

Additional observations from a re-analysis of the deposited data

How the results depend on the processing

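No member was called in any fit run. The number of genes called was 0 by edgeR and rose to 16 without a filter on low counts. It rose to 244 by DESeq2 on the 5 samples and to 887 by DESeq2 on the 6 libraries. Fits on the 6 libraries count the nearly identical DMHCA libraries 1 and 3 as 2 samples and so overstate the replication. In the edgeR fit of the report, 1478 genes had an unadjusted p under 0.05. The log2 fold changes of Vldlr, Lrp8, Mylip and Scarb1 kept their sign in all 16 alternatives, not all of which could change it. Robust dispersions leave the fold change as it is, and without DMHCA library 1 or 3 the other of the nearly identical pair remains. Lrp2 fell under the filter without control library 1 or 3, in which it is high, on the 6 libraries with and without the block, and with a mean of at least 100 counts, so its sign elsewhere says nothing of stability, and its value went from -1.96 to -0.37 by limma on log2(TPM + 0.1) and -0.050 on log2(TPM + 1). Mylip ranged from 0.80 to 1.09 over the 10 alternatives that keep all libraries and from 0.65 to 1.10 over left-out libraries, with an unadjusted p up to 0.055 and up to 0.0752. Sorl1 changed sign with edgeR on the 6 libraries (0.061), DESeq2 on the 6 libraries (0.089) and limma on log2(TPM + 1) (0.070) and log2(TPM + 0.1) (0.070), and ranged from -0.20 to 0.41 over left-out libraries. Lrp1 ranged from -0.051 to 0.42 over them. The cause was not tested. The median log2 fold change of all genes was 0.16 for limma on log2(TPM + 0.1), -0.18 without a filter, -0.19 by DESeq2 on the 5 samples and -0.20 on the 6 libraries. Without control library 3, a check added after the data were seen, 3 higher and 1 lower of the pathway genes had an unadjusted p under 0.05, against 3 and 2, while over all genes 407 and 617 of 18855 did, against 685 and 793 of 19427.

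With the replicate number as a block on the 6 libraries, edgeR called 0 genes and 3207 had an unadjusted p under 0.05, against 2912 without the block, and the log2 fold change of Mylip was 0.94. Same-numbered control and DMHCA libraries share only a number. Their deviations from the group means correlated at -0.05, 0.32 and 0.33, and control library 1 and DMHCA library 1 did not correlate best with their own number. Control library 3 correlated at 0.32 with DMHCA library 1 and at 0.33 with DMHCA library 3. These 2 DMHCA libraries are nearly identical, so the check cannot tell their numbers apart. With 2 DMHCA samples, the 95% intervals of all members other than Mylip include 0.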
